A study of Homo sapiens with 3 samples.

Results

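The 8 genes described here are classic targets of the androgen receptor and genes that mark prostate epithelium, namely KLK2, KLK3, TMPRSS2, FOLH1, HOXB13, FOXA1, STEAP1 and STEAP2. They were taken by name from the 58735 genes of the count tables, and each name matched 1 gene. The tables hold RNA-seq of 3 libraries of DU145, a human prostate cancer line whose growth needs no androgen. One group is a single library labelled control, and the other is a pair of libraries labelled PD-L1 knockdown. Their sample titles number them 1 and 2 and name no short hairpin RNA (shRNA). The numbers are matched here to the PD-L1sh1/2 cells of the study's methods, which list the sequence of 1 shRNA only. By this match, the libraries of the pair are called here the shRNA 1 and shRNA 2 libraries (PD-L1 knockdown 1 and 2 in the plots). Where 3 values are given in a row, they follow the order control, shRNA 1, shRNA 2. No androgen, inhibitor or time course was part of the design, and all cells grew in medium with serum. For the study's stable lines the methods describe lentiviral pLKO.1 vectors and puromycin selection, with the empty vector as control. The RNA-seq section of the methods names only DU145 and DU145 PD-L1sh1/2, so whether the control library carried the empty vector is not stated. The androgen receptor's own gene is not among the 8 and was not analysed here.

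Androgens enter the cell and bind the androgen receptor, a nuclear receptor that then sits on DNA at paired short sites and switches on genes of the prostate's secretory cells. FOXA1 is a forkhead pioneer factor that opens chromatin for the receptor, and HOXB13 is a homeobox factor of the prostate and hindgut that works beside both. KLK3 encodes prostate-specific antigen and KLK2 its close relative, both secreted serine proteases. TMPRSS2 is a serine protease of the cell surface, FOLH1 encodes prostate-specific membrane antigen, and STEAP1 and STEAP2 are membrane proteins of a metalloreductase family. DU145 is used as a model of disease that no longer depends on the receptor and is known for lacking prostate-specific antigen.

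The count totals were 14733088 to 15786457 reads on genes per library. The RNA of the targeted gene did not follow the labels. CD274, which encodes PD-L1, was counted 204, 213 and 224 times, and the fitted log2 fold change was 0.05 (SE, the standard error, 0.20, edgeR quasi-likelihood adjusted p = 0.947). The series text also names another cell line, BCPAP, and RBM45 stands in the heading above the control's counts. The libraries are therefore called by their labels, and each direction below rests on those labels. The study's methods state that its stable lines were checked for the protein by Western blotting, and the paper shows such blots for its PD-L1 knockdown DU145 cells. These blots are not part of the files used here.

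The promoters of KLK3, KLK2, STEAP2 and FOXA1 are shown because they set genes without a single read beside genes that were well counted. RefSeq promoter windows (GRCh38.p14, 250 bases before to 50 after a start site) were found for 5 of the 8 genes. The windows printed run 5′ to 3′ on the gene's own strand and lie at chr19:50854665-50854964 (KLK3, plus), chr19:50873189-50873488 (KLK2, plus), chr7:90213570-90213869 and chr7:90211490-90211789 (STEAP2, plus) and chr14:37595200-37595499 (FOXA1, minus). Capitals mark matches to 4 motifs searched on these windows. They are the core of the paired androgen element (GNACA, then any 4 bases, then GTNC), the single receptor site AGAACA, the forkhead site TGTTTAC, each on both strands, and TATAAA on the gene's strand. The single site can overlap the paired core.
KLK3: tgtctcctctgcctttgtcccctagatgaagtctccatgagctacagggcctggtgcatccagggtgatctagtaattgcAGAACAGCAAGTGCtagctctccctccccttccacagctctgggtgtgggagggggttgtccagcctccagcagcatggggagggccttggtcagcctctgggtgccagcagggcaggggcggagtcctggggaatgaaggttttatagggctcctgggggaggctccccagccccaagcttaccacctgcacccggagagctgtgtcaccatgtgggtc
KLK2: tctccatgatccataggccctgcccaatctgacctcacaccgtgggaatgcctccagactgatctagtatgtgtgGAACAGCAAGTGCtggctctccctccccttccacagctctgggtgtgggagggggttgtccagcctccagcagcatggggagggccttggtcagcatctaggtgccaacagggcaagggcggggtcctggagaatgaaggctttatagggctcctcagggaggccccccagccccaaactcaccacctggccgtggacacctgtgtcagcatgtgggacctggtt
STEAP2, later start: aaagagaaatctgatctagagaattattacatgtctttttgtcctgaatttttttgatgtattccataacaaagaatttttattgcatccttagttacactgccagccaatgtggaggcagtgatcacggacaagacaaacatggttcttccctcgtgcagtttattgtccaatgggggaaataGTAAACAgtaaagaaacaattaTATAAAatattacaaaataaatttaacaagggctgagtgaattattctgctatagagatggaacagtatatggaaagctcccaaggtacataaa
STEAP2, earlier start: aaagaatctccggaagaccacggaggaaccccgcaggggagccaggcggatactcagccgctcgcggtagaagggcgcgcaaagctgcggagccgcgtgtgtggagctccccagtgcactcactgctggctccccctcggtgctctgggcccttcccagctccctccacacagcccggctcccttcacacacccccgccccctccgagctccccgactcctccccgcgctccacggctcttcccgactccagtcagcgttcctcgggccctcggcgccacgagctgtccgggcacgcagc
FOXA1: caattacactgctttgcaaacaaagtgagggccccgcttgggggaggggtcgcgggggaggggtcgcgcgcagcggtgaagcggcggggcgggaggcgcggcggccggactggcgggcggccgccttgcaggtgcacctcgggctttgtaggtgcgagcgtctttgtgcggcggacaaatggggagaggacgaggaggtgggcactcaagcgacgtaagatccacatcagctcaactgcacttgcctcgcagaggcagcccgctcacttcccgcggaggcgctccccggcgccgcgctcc

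KLK3 and KLK2 both held the paired androgen element core, which starts 169 and 175 bases before their start sites, respectively. The core was present in 2.19% of all 35116 promoter windows of the same length. In KLK3 it overlaps an AGAACA, a motif found in 14.8% of the windows. Both kallikrein windows also share an identical run of 80 bases. The later start of STEAP2 held a forkhead site, read on the opposite strand, and a TATAAA, which were found in 3.42% and 7.33% of all windows. None of these letters was found in the windows of FOXA1, STEAP1 or the earlier start of STEAP2. The windows also differed in CG dinucleotides. Those of FOXA1, STEAP1 and the earlier start of STEAP2 held 34, 27 and 28 CG pairs, whereas KLK3, KLK2 and the later start of STEAP2 held 2, 3 and 2, against a median of 14 over all windows. The gene spans in the deposited files start outside the printed windows for KLK2, STEAP2 and FOXA1. These matches describe sequence only, and binding was not measured in the files.

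The 8 genes fell apart into 5 without a single read and 3 with a clear level. KLK3, KLK2, TMPRSS2, FOLH1 and HOXB13 had 0, 0 and 0 counts each. Among all 19951 protein-coding genes listed, 3801 (19.1%) had 0 counts in all 3 libraries. A count of 0 was taken here to allow up to 3 counts, which is 0.190 to 0.204 CPM (reads scaled to a common library total) in these libraries. Counting error alone is covered by this limit and by the intervals below, since reads amplified by PCR were not marked by molecule. Per length, in the deposited fragments per kilobase of transcript, scaled to library size (FPKM), the limits were 0.0409 to 0.0438 for KLK3, 0.0297 to 0.0317 for KLK2, 0.0310 to 0.0332 for TMPRSS2, 0.0497 to 0.0531 for FOLH1 and 0.0548 to 0.0585 for HOXB13. No order among these 5 genes and no difference between libraries was thus detectable at this depth, and no fold change is given for them.

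**Figure D1:**
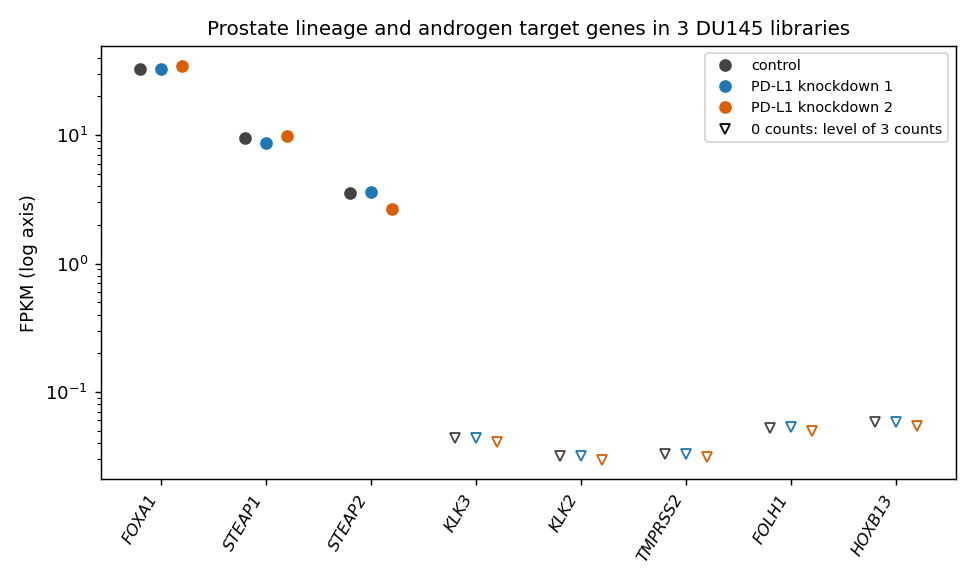
FPKM (log axis) of the 8 genes in each of the 3 libraries, where filled circles are measured values and open triangles mark the level that 3 counts would have for a gene with 0 counts. FOXA1, STEAP1 and STEAP2 lie between 2.65 and 34.7 FPKM, and the other 5 genes have no read in any library.

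FOXA1 was the highest of the 8. It had 1933, 1934 and 2185 counts, which is 32.7, 32.9 and 34.7 FPKM. Its mean of 33.4 FPKM was above that of 92.7% of the 16150 protein-coding genes with a count. STEAP1 had 228, 207 and 252 counts, or 9.45, 8.62 and 9.82 FPKM, at percentile 70.3 of those genes. STEAP2 had more counts than STEAP1, 459, 465 and 365, over a longer listed length, and the lowest level per length of the 3 at 3.55, 3.61 and 2.65 FPKM (percentile 48.0). The order of STEAP1 above STEAP2 rests on these listed lengths, 1625 and 8715 bases. The order FOXA1, STEAP1, STEAP2 was the same in every library and the ranges of neighbouring genes did not overlap. In FPKM, FOXA1 was 3.46, 3.81 and 3.54 times STEAP1, and STEAP1 was 2.66, 2.39 and 3.70 times STEAP2. In the control, FOXA1 stood 750.6-fold above the level that 3 counts would give KLK3 and 560.9-fold above that of HOXB13, both in FPKM. These folds rest on the chosen limit of 3 counts and on the listed lengths, and carry no counting interval.

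The genes next to the silent members were silent in some loci and read in others. KLK3 (ENSG00000142515, GRCh38 chromosome 19, 50854915 to 50860764, plus strand) and KLK2 (ENSG00000167751, 50861568 to 50880567, plus strand) lie 0.804 kb apart in the kallikrein cluster. Their flanking coding genes KLK15 and KLK4 had 1, 0 and 1 and 3, 0 and 2 counts. HOXB13 (ENSG00000159184, chromosome 17, 48724763 to 48729178, minus strand) has PRAC2 and PRAC1, small genes named for prostate and colon, as its nearest coding genes on one side, and both had 0 counts in every library. On the other side TTLL6, at 33.1 kb, had 2, 0 and 1 counts, and CALCOCO2, a receptor of selective autophagy at 102 kb, had 1112, 1069 and 1086. HOXB9, which ends 98.4 kb away in the same cluster, had 468, 406 and 445 counts. TMPRSS2 (ENSG00000184012, chromosome 21, 41464551 to 41531116, minus strand) lies 5.34 kb from MX1, an interferon-induced GTPase, which had 277, 257 and 229 counts, whereas TMPRSS2 itself had none. FOLH1 (ENSG00000086205, chromosome 11, 49146635 to 49208670, minus strand) has TRIM64C and TRIM49B as its nearest coding genes on one side and OR4C13 and OR4C12 on the other, all at 0 counts in the 3 libraries.

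FOXA1 (ENSG00000129514, chromosome 14, 37589984 to 37596059, minus strand) overlaps the start of TTC6 on the opposite strand, which had 121, 100 and 119 counts. STEAP1 (ENSG00000164647, chromosome 7, 90154375 to 90164829, plus strand) and STEAP2 (ENSG00000157214, 90167590 to 90238137, plus strand) are neighbours 2.76 kb apart. STEAP1 lies wholly and STEAP2 partly inside the antisense gene STEAP2-AS1, which had 0 counts in all 3 libraries. Whether the counting used the strand is not stated, so reads of overlapping genes cannot be told apart. Sequence shared with other genes also limits 2 of the members. STEAP1 shares 33.5% of its 31-base words with transcripts of STEAP1B, and FOLH1 shares 38.2% with FOLH1B. STEAP1B had 67, 60 and 39 counts and FOLH1B had 0 in every library. For the other 6 genes the share with all other genes was 0.844% to 3.50%.

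To find out whether these genes differed between the libraries labelled PD-L1 knockdown and the control, the counts of all 19849 genes with at least 10 counts in total were fitted together by edgeR's quasi-likelihood method. Of the 8 genes, 3 were tested and none was called, whereas over all tested genes 0.247% were higher and 0.106% lower at a Benjamini-Hochberg adjusted p under 0.05, and 1.54% higher and 0.942% lower at an unadjusted p under 0.05 with an absolute log2 fold change above 1. None of the 3 reached an unadjusted p under 0.05 with edgeR or with DESeq2. The single control leaves 1 residual degree of freedom per gene, so the spread comes from the pair of libraries labelled PD-L1 knockdown. The fit treats this pair as replicates of 1 group. Their spread may be technical, and if the libraries carry different shRNAs it also holds any difference between these. edgeR pooled this spread over all tested genes. A gene's own difference between those libraries therefore did not set its SE or p. The variation between control cultures is not covered.

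FOXA1 had a log2 fold change of 0.04 (SE 0.12, edgeR quasi-likelihood adjusted p = 0.929), with a 95% interval from -0.19 to 0.28, or 0.874 to 1.22 as a ratio. Its CPM were 131, 131 and 138, so that the libraries labelled PD-L1 knockdown stood at 1.00 (95% counting interval 0.939 to 1.07) and 1.06 (0.992 to 1.12) times the control. For STEAP1 the log2 fold change was -0.04 (SE 0.20, edgeR quasi-likelihood adjusted p = 0.96), with a 95% interval of 0.744 to 1.27 as a ratio. Its ratio to the control was 0.908 (95% counting interval 0.748 to 1.10) in one library and 1.03 (0.859 to 1.24) in the other, on either side of the control.

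STEAP2 was the only 1 of the 3 genes whose libraries labelled PD-L1 knockdown stood apart from each other beyond counting error. Its CPM were 31.2, 31.6 and 23.1. The first ratio to the control was 1.01 (95% counting interval 0.888 to 1.16) and the second 0.742 (0.645 to 0.853). The shRNA 2 library was at 0.733 (0.637 to 0.842) of the shRNA 1 library. Intervals below 1 of this kind were frequent, however. They were found for 14.2% of all tested genes where shRNA 1 was set against the control, for 18.8% where shRNA 2 was, and for 12.8% where shRNA 2 was set against shRNA 1. Over both libraries the log2 fold change of STEAP2 was -0.19 (SE 0.17, edgeR quasi-likelihood adjusted p = 0.696), with a 95% interval of 0.702 to 1.10 as a ratio. Without the shRNA 2 library it was 0.03, and without the shRNA 1 library it was -0.43, both values without a test.

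**Figure D2:**
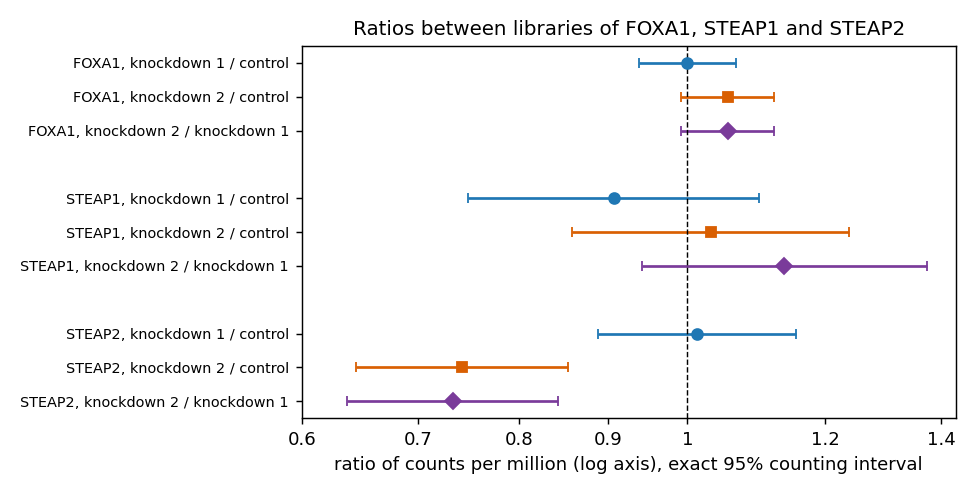
Ratio of CPM (log axis) between pairs of libraries for FOXA1, STEAP1 and STEAP2, with exact 95% counting intervals as bars and a dashed line at a ratio of 1. The intervals of STEAP2 in the shRNA 2 library end at 0.853 against the control and at 0.842 against the shRNA 1 library, while the other 7 include 1.

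The families of these genes were then read in the same libraries. Of 16 kallikrein genes, including the pseudogene KLKP1, 7 had 0 counts in all libraries and none had more than 14 counts in any. KLK10, KLK14 and KLK5 had the most, with 12, 14 and 14, 7, 9 and 5, and 5, 7 and 7 counts, and all 16 were under 1 FPKM on average. Of 12 genes of the HOXB cluster and its PRAC genes, 8 had counts. HOXB7 had 14.1, 15.7 and 16.2 FPKM and HOXB9, whose span lies within that of HOXB7 on the same strand, had 12.2, 10.6 and 10.9 FPKM, so reads of this pair cannot be told apart with certainty. In contrast, HOXB1, HOXB13, PRAC1 and PRAC2 had no count. In the STEAP family STEAP3, which reduces iron during its uptake, stood above STEAP1 at 13.8, 15.4 and 15.4 FPKM, while STEAP4 had 10, 13 and 25 counts. FOXA1 was alone in its family at this level, since FOXA2 had 10, 3 and 5 counts and FOXA3 had 8, 20 and 14. Of 12 genes related to TMPRSS2, ST14 (matriptase) at 4.74, 5.46 and 6.33 FPKM and TMPRSS9 at 2.13, 1.45 and 2.49 FPKM were over 1 FPKM on average, whereas TMPRSS2, TMPRSS4 and TMPRSS15 had no count. The relatives of FOLH1 were low too, with 30, 22 and 15 counts of NAALAD2 and 37, 24 and 10 of NAALADL2. NAALADL2 was lower at the unadjusted threshold (log2 fold change -1.15, SE 0.51), yet not after adjustment (edgeR quasi-likelihood adjusted p = 0.345).

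**Figure D3:**
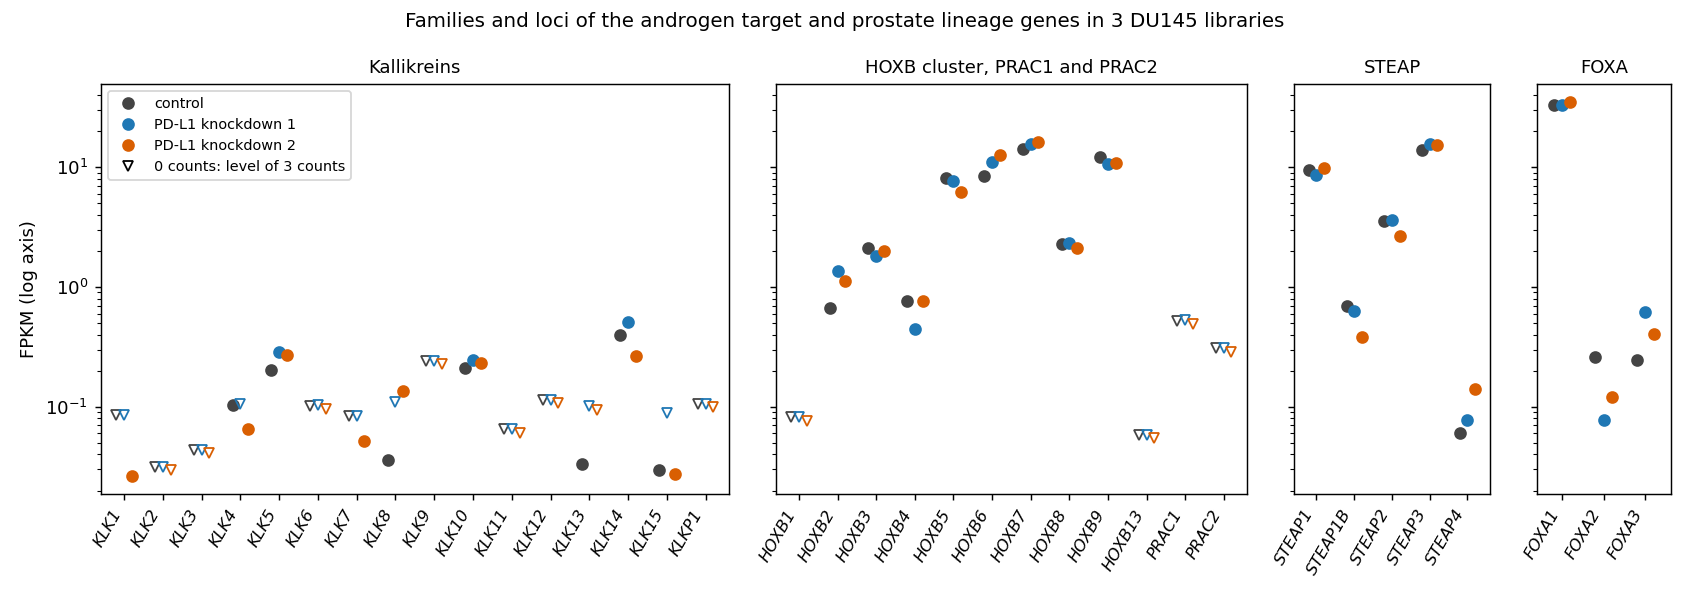
FPKM (log axis) of the kallikrein, HOXB, STEAP and FOXA genes in each library, with open triangles at the level of 3 counts where a library had none, so that a circle of 1 or 2 counts can lie below a triangle. No kallikrein exceeds 0.512 FPKM, HOXB13 and its neighbours PRAC1 and PRAC2 have no count beside HOXB genes of up to 16.2 FPKM, and FOXA1 is the only FOXA gene above 1 FPKM.

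Other genes known to respond to androgen did not share one state. Of 26 such genes, 20 were tested, 5 had counts below the minimum, and ACPP, which encodes prostatic acid phosphatase, had 0 counts in every library. KLK4 had 3, 0 and 2 counts and TRPM8, a cold-sensing channel, had 0, 0 and 1. HPGD, which breaks down prostaglandins, had 0, 1 and 2 counts and ADAMTS1, a secreted metalloprotease, had 0, 0 and 2. Of the 26 genes, 9 were under 1 FPKM on average, and others were well counted. NCAPD3, a condensin subunit, had 21.8, 21.2 and 19.8 FPKM. PMEPA1, an inhibitor of TGF-beta signalling, had 17.6, 18.4 and 20.7 FPKM. FKBP5, a chaperone partner of steroid receptors, had 17.0, 16.4 and 17.0 FPKM. None of the 20 was called in either direction by the adjusted p or the fold threshold. Their median log2 fold change was -0.05 (9 above 0 and 11 below), beside 0.00 for all tested genes. Of the 20, 5 had an unadjusted edgeR p under 0.05, a larger share than the 11.7% of all tested genes. Of these 5, 1 was higher and 4 were lower. For the lower ones, 4 of 20 is also a larger share than the 4.92% of all tested genes. Whether the list differs from all tested genes was not tested.

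The gene of this list with the smallest p was TPD52, a vesicle trafficking protein, with 1641, 1425 and 1256 counts. Its log2 fold change was -0.33 (SE 0.13, edgeR quasi-likelihood adjusted p = 0.243). ELL2, an elongation factor of RNA polymerase II, had 672, 574 and 492 counts, for a log2 difference of -0.38 (SE 0.15, edgeR quasi-likelihood adjusted p = 0.29). ACSL3, which activates long-chain fatty acids, had 1743, 1485 and 1457 counts (log2 difference -0.29, edgeR quasi-likelihood adjusted p = 0.328), and INPP4B, a lipid phosphatase, had 151, 119 and 105 (log2 difference -0.47, edgeR quasi-likelihood adjusted p = 0.417). NDRG1, a stress and hypoxia response gene, was the 1 of the 5 with a value above 0, with 594, 705 and 819 counts, for a log2 difference of 0.31 (SE 0.15, edgeR quasi-likelihood adjusted p = 0.39). In each of the 5 genes both libraries labelled PD-L1 knockdown lay on the same side of the control in CPM, and none passed the adjustment. The 5 were picked by their p from these same libraries, which share 1 control, so the common side is no separate evidence of a change. SLC45A3, a prostate membrane transporter also known as prostein, had 90, 100 and 139 counts, or 1.64, 1.83 and 2.38 FPKM, and an edgeR quasi-likelihood adjusted p of 0.625.

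**Figure D4:**
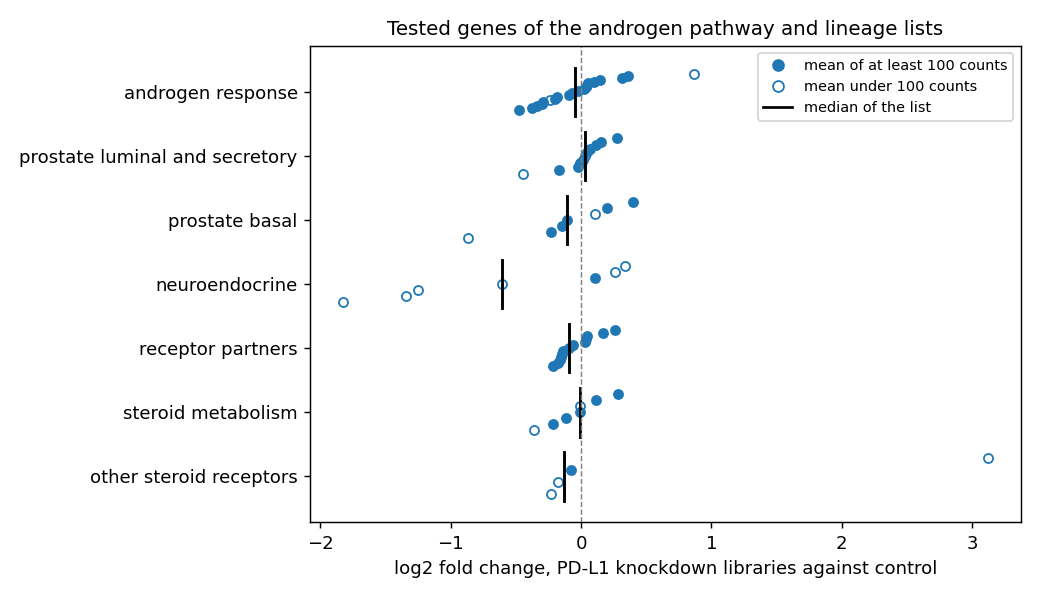
Log2 fold change of every tested gene in 7 lists of androgen pathway and lineage genes, PD-L1 knockdown libraries against the control, with filled circles for a mean of at least 100 counts, open circles for fewer and black bars for the list medians. The well-counted genes lie between -0.47 and 0.40, and the values beyond 1 in either direction belong to genes with under 100 counts.

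The receptor's partners and the steroid pathway were read as well. Of 14 partner genes, 13 were tested and none was called, with a median log2 fold change of -0.09. The chaperones HSP90AB1 (855, 906 and 859 FPKM) and HSP90AA1 (469, 461 and 393 FPKM), which hold steroid receptors ready for ligand, led this list, and the coactivator NCOA4 followed with 69.0, 65.7 and 67.2 FPKM. GRHL2, an epithelial factor, was at 0 counts in all libraries. Among 14 genes of steroid metabolism, SRD5A1, which turns testosterone into dihydrotestosterone, had 11.1, 11.3 and 10.8 FPKM, whereas SRD5A2, the form typical of prostate, had 4, 2 and 1 counts. HSD17B4, SRD5A3 and AKR1C3 were the next highest at 9.78, 4.01 and 3.17 FPKM on average. CYP17A1 had 2, 0 and 2 counts, HSD3B1, HSD17B3, UGT2B15 and UGT2B28 had none, and none of the 7 tested genes was called. Of the other steroid receptors, NR3C1, the glucocorticoid receptor, had 26.5, 24.6 and 25.9 FPKM. NR3C2, the mineralocorticoid receptor, passed the unadjusted threshold on 1, 9 and 11 counts. Its libraries stood at 9.0 (95% counting interval 1.25 to 394) and 10.3 (1.49 to 442) times the control, and it had an edgeR quasi-likelihood adjusted p of 0.355.

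The prostate label was set against markers of luminal, basal and neuroendocrine cells. Of 17 luminal and secretory genes, the general epithelial ones were high, with KRT8 at 157, 176 and 175 and KRT18 at 163, 182 and 161 FPKM. CDH1 had 26.0, 22.7 and 30.1 FPKM, and EPCAM had 20.8, 20.3 and 22.8 FPKM. RDH11, of the same list, had 24.2, 25.5 and 22.8 FPKM. KRT8 and KRT18 overlap on opposite strands. The prostate factors SPDEF (3.55, 3.04 and 4.66 FPKM) and GATA2 (5.29, 5.52 and 7.34 FPKM) were present at lower levels. The secretory genes MSMB and AZGP1 had no count, and 8 of the 17 were under 1 FPKM on average. Of 11 genes on the basal list, KRT5 and TP63 had no count and KRT14 had 0, 0 and 2, whereas LAMB3, CAV1 and DST were high at 142, 104 and 31.3 FPKM on average. ITGB4, an integrin of hemidesmosomes, had 18.0, 21.8 and 25.6 FPKM and the smallest p of all listed genes (log2 fold change 0.40, SE 0.12, edgeR quasi-likelihood adjusted p = 0.124), which did not pass the adjustment. Of 13 neuroendocrine genes, 12 were under 1 FPKM, ENO2 being the exception at 7.05, 6.61 and 8.58 FPKM, and INSM1 had no count. ONECUT2, a factor of that list, was lower at the unadjusted threshold with 29, 13 and 12 counts (log2 fold change -1.25, SE 0.59, edgeR quasi-likelihood adjusted p = 0.376). Of the genes read here that are known from prostate, some were thus at 0 in every library, such as KLK3, KLK2, TMPRSS2, HOXB13, FOLH1, ACPP and MSMB. Others, such as FOXA1, STEAP1, STEAP2, SPDEF, GATA2 and SLC45A3, were counted in every library. Between them lay genes of low counts, such as AMACR with 46, 50 and 47, HPN with 6, 5 and 4 and PCA3 with 1, 1 and 0. The identity of the cells was not tested further.

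Over all 165 genes of the lists and families, 104 were tested. None was called by edgeR at an adjusted p under 0.05, 12 had an unadjusted p under 0.05 (11.7% of all tested genes did), and 3 passed the fold threshold (2.48% of all tested genes did), NR3C2 as higher and ONECUT2 and NAALADL2 as lower. Both counts are close to the share over all tested genes. With DESeq2, 0 of the 104 were called at an adjusted p under 0.05, 1 had an unadjusted p under 0.05 and none passed the fold threshold.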

How the data were processed

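RNA-seq of 3 DU145 libraries was used, grouped by the labels of the samples into 1 control and 2 PD-L1 knockdown libraries. Per the study's methods, mRNA was selected with oligo(dT), cDNA was made with random hexamers, and a service company sequenced the libraries. The submitters' processing notes list Bowtie2 2.0.6, TopHat2 2.0.9, Cufflinks 2.1.1 and Cuffdiff 2.1.1. The counting tool and its strand setting are not given in the sources used here. The authors deposited raw counts per gene and FPKM values. For genes with at least 10 counts in a library, each deposited FPKM was checked to follow from the count, the listed length and 1 constant per library. The FPKM of genes with fewer counts were not checked. The FPKM were used for levels between genes and the counts for all tests. All 58735 gene identifiers were found in GENCODE 29 (GRCh38), 58724 of them with the same start and end.

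Counts of genes with at least 10 counts over the 3 libraries were normalized by TMM and tested across all genes with edgeR 4.0.16 (glmQLFit, glmQLFTest) in R 4.3.3, with Benjamini-Hochberg adjustment. DESeq2 1.42.0 was an alternative. The fit was tested on simulated data. Ratios of 2 libraries carry exact conditional 95% intervals on library totals. Intervals of a log2 fold change are 95% normal intervals from its SE. All 8 members and, from each list, genes past a threshold, with the highest FPKM or at 0 counts were named by rule, except for a few that are not reported here. SLC45A3, KLK4, TRPM8, HPGD, ADAMTS1, TPD52, ELL2, ACSL3, INPP4B, NDRG1, EPCAM, SPDEF, GATA2, AMACR, HPN, PCA3, KRT14, SRD5A2, CYP17A1, TG, TSHR and SLC5A5, and the family members with no locus or sequence in common with a member, were chosen after their values were seen. Members and lists were chosen with earlier results of these data known. Of 5 members with a RefSeq promoter window, the windows of 4 were printed, and HOXB13, TMPRSS2 and FOLH1 were not matched.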

Additional observations from a re-analysis of the deposited data

How the results depend on the processing

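The log2 fold changes of FOXA1, STEAP1 and STEAP2 kept their direction and stayed uncalled under DESeq2 size factors, library totals alone, a minimum of 1 or 30 counts, and the DESeq2 Wald test. They ranged from 0.04 to 0.05 for FOXA1 and from -0.19 to -0.18 for STEAP2, and stayed at -0.04 for STEAP1, with adjusted p of at least 0.686. Without 1 of the libraries labelled PD-L1 knockdown they ranged from 0.01 to 0.08 for FOXA1, from -0.13 to 0.05 for STEAP1 and from -0.43 to 0.03 for STEAP2, as values with no test. Levels recomputed from library totals gave means of 33.6 for FOXA1, 9.33 for STEAP1 and 3.28 for STEAP2. The counts of all called genes did depend on the setting. With a minimum of 30 counts, which left fewer genes to test, 13 genes were higher and 4 lower at the adjusted p, and 160 higher and 104 lower at the fold threshold. The DESeq2 Wald test gave 3 higher and 3 lower, and 39 higher and 7 lower, and the cause was not tested. The values they replace are 49 higher and 21 lower, and 305 higher and 187 lower. Among the listed genes at the fold threshold, 2 were higher with a minimum of 1 count (PAX8 was added), 0 were higher with a minimum of 30 counts, and 0 were higher and 0 lower with DESeq2, in place of 1 and 2. No paired analysis was possible because the control has 1 library. With 3 counts as the limit of a 0, the 5 silent genes cannot be ranked.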

Other observations

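The series text names a thyroid cancer line, so 8 thyroid genes were read in the same libraries. FOXE1, a forkhead factor of thyroid and other foregut epithelia, had 738, 645 and 720 counts, or 14.4, 12.6 and 13.2 FPKM. The other 7 were under 1 FPKM on average, with TG (thyroglobulin) at 11, 3 and 15 counts, TSHR (the thyrotropin receptor) at 2, 3 and 2, and SLC5A5 (the iodide transporter) at 1, 0 and 1. PAX8 had 13, 28 and 29 counts and an edgeR quasi-likelihood adjusted p of 0.46. Of 9 markers of fibroblasts, blood cells and vessels, all were under 1 FPKM, and CD3E and HBB had no count. Their summed level was 7.47, 7.67 and 10.2 CPM. COL1A1, a collagen chain, held most of it with 101, 98 and 149 counts. None of the tested genes of either list was called.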
